A study of Mus musculus with 8 samples.

Results

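The nuclear genes of the mitochondrial respiratory chain were followed in splenic B-1a cells. Members were taken by symbol: genes starting with *Nduf* were put in complex I, *Sdha* to *Sdhd* in complex II, genes starting with *Uqcr* and *Cyc1* in complex III, genes starting with *Cox4* to *Cox8* in complex IV and genes starting with *Atp5* in complex V. Of the 10783 genes in the table, 84 were members, with 43 in complex I, 4 in complex II, 9 in complex III, 11 in complex IV and 17 in complex V. The rule reads names only, so it also takes in 7 assembly factors of complex I (*Ndufaf1* to *Ndufaf7*), and it puts *Ndufa4*, whose product is now counted as a subunit of cytochrome c oxidase, in complex I. It likewise puts *Atp5s* and *Atp5sl*, which are not structural subunits, in complex V. Isoforms of muscle, lung or hypoxic cells that share these names, such as *Cox4i2*, *Cox6a2*, *Cox7a1* and *Ndufa4l2*, were not analysed here, nor were the subunits encoded in mitochondrial DNA.

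RNA was sequenced from sorted spleen cells in 8 libraries: 3 of IgMneg B-1a cells of CKO mice, 2 of IgMhi B-1a cells of CKO mice and 3 of IgMhi B-1a cells of control mice. CKO mice (*Ctla4* fl/fl with a heterozygous Cre allele, on the Balb/c background) lose the inhibitory receptor CTLA-4 in B cells, where Cre is expressed, and control mice (*Ctla4* +/+, labelled wild type) carry the same Cre allele without the floxed gene. The mice were 2–3 months old and were bred in separate crosses, while their sex and any pooling are not stated in the sources used here. IgMneg B-1a cells are CD5+ CD43+ B cells without surface IgM or IgD, and the CKO mouse numbers 2 and 3 occur in both sorts, which was read as the same mouse although the labels do not state it.

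The respiratory chain passes electrons of NADH (complex I) and of succinate (complex II) to coenzyme Q, on to cytochrome c by complex III and to oxygen by complex IV. Complexes I, III and IV pump protons across the inner mitochondrial membrane, and complex V lets them flow back to make ATP. Complex II is also an enzyme of the citric acid cycle, and it is the only complex of the chain whose subunits are all encoded in the nucleus. In lymphocytes oxidative phosphorylation serves resting cells and is raised, along with glycolysis, upon activation.

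Reads in genes were 5279044 to 9639495 in IgMneg, 6626127 and 7952315 in CKO IgMhi and 1404660 to 10289686 in control libraries, and control libraries 1 and 2 were the shallowest. The B-1a markers *Cd5*, *Spn*, *Zbtb32* and *Bhlhe41* were detected in each group, with a summed level of 2614 to 3861 normalized counts in IgMneg, 2514 and 2695 in CKO IgMhi and 2368 to 2941 in control libraries. Of 7 T cell markers, the 2 in the table, *Cd3g* and *Lck*, summed to 862 to 1031 normalized counts in IgMneg, against 364 and 509 in CKO IgMhi and 393 to 419.5 in control libraries. The 6 myeloid markers summed to 39.8, 60.3 and 417 normalized counts in IgMneg libraries 1, 2 and 3, 70.2 and 170.3 in CKO IgMhi and 75.6 to 168 in control libraries, with *S100a8* and *S100a9* at 0 in all control libraries. The erythroid gene *Alas2* also stood out in IgMneg library 3, with 120.7 normalized counts, against 0 to 8.86 in the IgMhi libraries and 0.97 and 3.18 in IgMneg libraries 1 and 2. The 4 plasma cell markers summed to 1004 to 1434 in IgMneg, 1243 and 1677 in CKO IgMhi and 1158 to 3079 in control libraries. The part of other cells in the results below was not tested.

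Genes were tested where 2 or more libraries had 10 or more normalized counts, which all 84 members did. The chain was expressed in every group. The complexes of highest and lowest level differed by more than the groups did within a complex, while complexes III and V lay close together. Per kilobase of exon, the median member of complex IV stood at 889 normalized counts in IgMneg, 653 in CKO IgMhi and 723 in control cells. For complex III the median per kilobase was 493 in IgMneg, 396 in CKO IgMhi and 464 in control cells, and for complex V it was 428, 371 and 402 in the same groups. Complex II followed with 306, 223 and 239.6, and complex I with 203, 160.3 and 182 normalized counts per kilobase in IgMneg, CKO IgMhi and control cells. In each complex the median was thus highest in IgMneg and lowest in CKO IgMhi cells, a description of group means with no test.

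**Figure D1:**
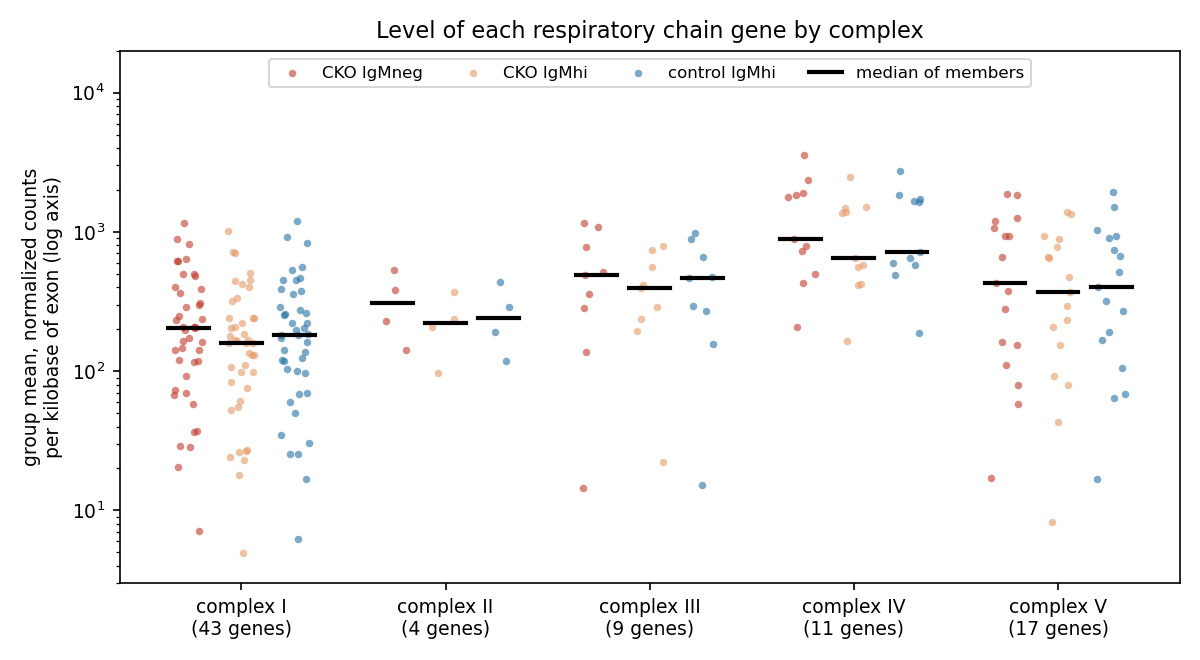
Mean level of each of the 84 members in normalized counts per kilobase of exon (log axis), by complex, in CKO IgMneg (left), CKO IgMhi (middle) and control IgMhi (right) cells. Black bars are medians of the members; in complex IV they stand at 889, 653 and 723, above those of the other complexes in each group.

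Within complexes, members were spread over a wide range of levels per kilobase. *Cox4i1*, the ubiquitous form of the regulatory subunit 4 of cytochrome c oxidase, averaged 2909 normalized counts per kilobase over the 8 libraries and *Cox6c* 187, the highest and lowest of complex IV. In complex V the highest was *Atp5g2*, a gene of the c ring that turns with the proton flow, at 1706 per kilobase, and the lowest *Atp5s*, at 14.0. *Uqcr10* (979) and *Uqcrq* (17.3) bounded complex III, *Sdhd* (446) and *Sdhc* (119) complex II, and *Ndufa4* (1119) and *Ndufab1* (6.13) complex I, all as normalized counts per kilobase over 8 libraries. Exon length is the union of all annotated exons, which lowers the level per kilobase of genes with long alternative ends. Many genes of the chain also have processed pseudogene copies elsewhere in the genome, and how reads shared with such copies were counted is not stated, so that low levels like those of *Uqcrq* and *Ndufab1* are uncertain.

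The comparison of IgMneg with IgMhi B-1a cells of CKO mice sets B-1a cells without surface IgM against those with it. In it 4 of the 84 members were called, all higher in IgMneg cells, and 3 of them are described here: *Sdhb* of complex II, *Ndufa9* of complex I and *Cox7a2l*, grouped with complex IV. Of all 10627 genes tested, 7.53% were called in either direction and 1.78% were called higher. At an unadjusted p under 0.05, 24 members were higher and 1 was lower, beside 10.4% of all genes tested higher and 13.8% lower. Log2 fold changes were positive for 78 and negative for 6 members, with a median of 0.33, beside 0.01 over all genes tested. The sum of *Cd3g* and *Lck* given above did not overlap between these sorts either. It covers only 2 of 7 T cell markers and was not split by gene. In bulk RNA, a larger number of cells with a high level and more RNA in each cell cannot be told apart.

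*Sdhb* encodes the iron-sulfur subunit of succinate dehydrogenase, which carries electrons from the flavin of SDHA to coenzyme Q. It lies on chromosome 4, 140517118 to 140535108 of mm9. *Sdhb* had 833, 789 and 946 normalized counts in IgMneg libraries 1, 2 and 3, 523 and 544 in CKO IgMhi libraries 2 and 3, and 638, 694 and 611 in control libraries 1, 2 and 3. All IgMneg libraries stood above all IgMhi libraries, whichever the genotype. The means were 856 ± 80.9 (SD, n = 3) in IgMneg and 534 ± 15.2 (SD, n = 2) in CKO IgMhi cells, a log2 fold change of 0.68 (SE 0.15, adjusted p = 0.0115). Over 24 other settings the log2 fold change ranged between 0.57 and 0.73, and *Sdhb* was called in 20 of them.

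*Ndufa9*, on chromosome 6, 126771881 to 126799162, encodes an accessory subunit at the joint between the peripheral and the membrane arm of complex I. It had 475, 504 and 459.9 normalized counts in IgMneg, 302 and 337 in CKO IgMhi and 362, 450.0 and 334 in control libraries, a log2 fold change of 0.59 over CKO IgMhi cells (SE 0.17, adjusted p = 0.0425). The lowest IgMneg library stood just above the highest IgMhi library, control library 2. *Ndufa9* was called in 15 of 24 other settings.

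*Cox7a2l*, on chromosome 17, 83901259 to 83913673, encodes a relative of the COX7A subunit that joins complexes III and IV into supercomplexes. It had 2746, 2986 and 2395 normalized counts in IgMneg, 1764 and 1644 in CKO IgMhi and 2063, 2446 and 1814 in control libraries. IgMneg libraries stood above the CKO IgMhi libraries, while control library 2 overlapped with them. The log2 fold change of IgMneg over CKO IgMhi cells was 0.66 (SE 0.16, adjusted p = 0.0207), and *Cox7a2l* was called in 18 of 24 other settings. With library totals as the scale, or with no trend of the variance on the mean, none of the 4 was called, and of all genes tested 0.113% and 0% were called higher in these settings.

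**Figure D2:**
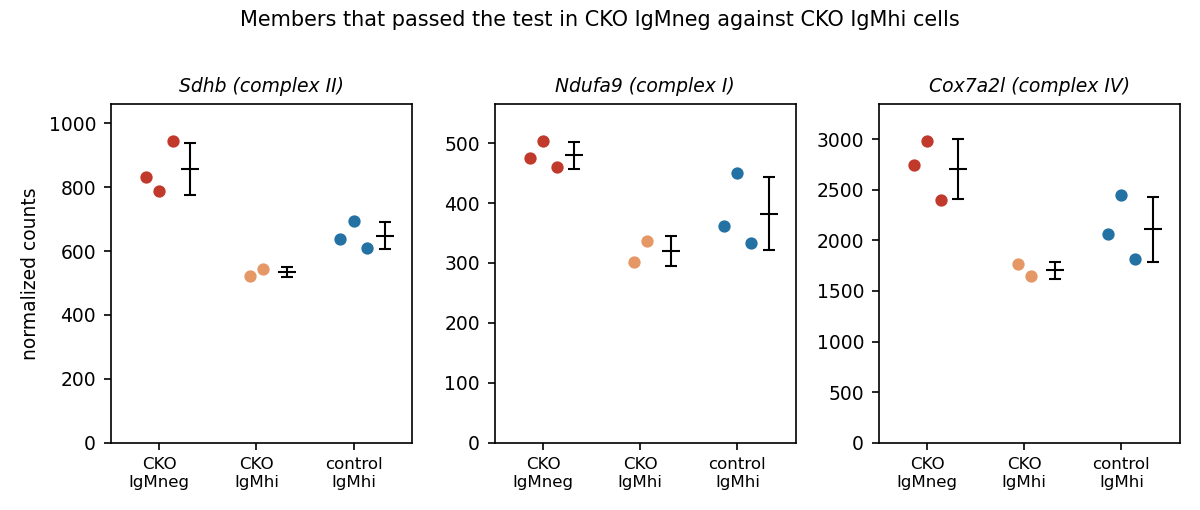
Normalized counts of *Sdhb*, *Ndufa9* and *Cox7a2l* in each library (coloured points, library numbers rising from left to right within a group) with the mean and SD of the group (black). In CKO IgMneg cells *Sdhb* had 789 to 946 normalized counts, above every CKO IgMhi and control IgMhi library.

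The sequences before the start sites of these 3 genes are shown to give the promoters whose transcripts differed. They span 250 bases before to 50 bases after the start, from RefSeq on GRCm38.p6, read on the strand of the gene, and 68 of the 84 members had an entry. Capitals mark exact matches on either strand to the cores bound by NRF1 (GCGCATGC or GCATGCGC), ETS factors such as GABP (CCGGAAG or CTTCCGG), YY1 (AAGATGGC or GCCATCTT) and SP1 (GGGCGG or CCGCCC), all factors known from promoters of respiratory chain genes.
Sdhb, chr4:140961021-140961320, strand +: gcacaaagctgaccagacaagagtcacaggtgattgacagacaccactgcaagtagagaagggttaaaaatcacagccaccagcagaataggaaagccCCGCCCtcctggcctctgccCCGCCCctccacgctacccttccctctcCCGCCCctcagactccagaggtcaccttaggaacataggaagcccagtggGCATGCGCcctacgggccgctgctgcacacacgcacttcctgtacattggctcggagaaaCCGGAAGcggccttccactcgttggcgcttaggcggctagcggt
Ndufa9, chr6:126849095-126849394, strand -: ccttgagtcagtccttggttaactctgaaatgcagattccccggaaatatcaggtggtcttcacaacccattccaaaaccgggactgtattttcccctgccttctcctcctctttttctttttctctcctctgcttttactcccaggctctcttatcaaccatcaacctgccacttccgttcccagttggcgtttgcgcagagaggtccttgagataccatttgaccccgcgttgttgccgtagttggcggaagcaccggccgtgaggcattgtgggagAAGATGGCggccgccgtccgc
Cox7a2l, chr17:83514284-83514583, strand -: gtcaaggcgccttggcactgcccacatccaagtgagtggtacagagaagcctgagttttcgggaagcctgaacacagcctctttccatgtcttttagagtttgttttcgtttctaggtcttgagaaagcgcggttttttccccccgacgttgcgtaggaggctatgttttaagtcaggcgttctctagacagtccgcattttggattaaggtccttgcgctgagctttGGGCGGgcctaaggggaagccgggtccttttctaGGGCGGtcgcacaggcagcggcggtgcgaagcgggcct

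In the order of the strand, the *Sdhb* promoter holds 3 SP1 cores, an NRF1 core and an ETS core, that of *Ndufa9* a YY1 core, and that of *Cox7a2l* 2 SP1 cores. Among the 68 members, the NRF1 core was found in 12 (17.6%), beside 6.74% of the tested genes with a promoter entry and 2.73% of all promoters in the table. The YY1 core was found in 9 members (13.2%), beside 5.94% and 2.77%, and the ETS core in 17 (25.0%), beside 22.7% and 8.91%. The SP1 core was found in 30 members (44.1%), fewer than the 70.3% of tested genes and beside 35.9% of all promoters. A member or tested gene was counted if any of its promoter entries held the core, while the share of all promoters counts each entry singly. The part of the number of entries per gene in these shares was not tested. These shares describe letters in the window and no binding was measured.

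By complex, the median log2 fold change of IgMneg over CKO IgMhi cells was 0.54 in complex II, 0.39 in complex V, 0.38 in complex IV, 0.30 in complex I and 0.30 in complex III. The median of complex V is the value of *Atp5sl*, which is not a structural subunit. Positive values were found for 42 of 43 members of complex I, 4 of 4 of complex II, 7 of 9 of complex III, 11 of 11 of complex IV and 14 of 17 of complex V, against 50.8% of all genes tested. In 32 of 84 members every IgMneg library was above both CKO IgMhi libraries, and in none was every one below, beside 20.3% of all genes tested above and 22.0% below. Differences between complexes were not tested.

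**Figure D3:**
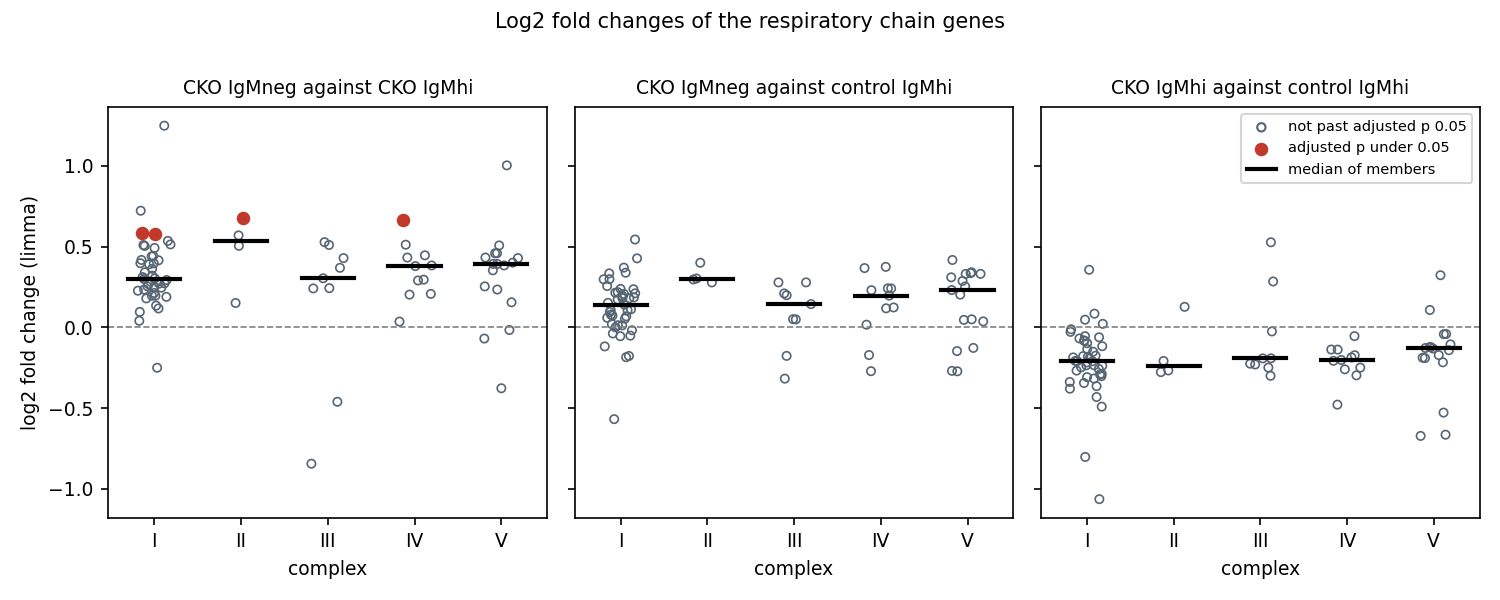
Log2 fold change of each member by complex, for CKO IgMneg against CKO IgMhi (left), CKO IgMneg against control IgMhi (middle) and CKO IgMhi against control IgMhi cells (right). Filled points passed an adjusted p of 0.05 and bars are medians; the medians of the 5 complexes lie between 0.30 and 0.54 on the left, 0.14 and 0.30 in the middle and -0.24 and -0.13 on the right.

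Of the other complex I genes, the NADH-oxidizing module had log2 fold changes over CKO IgMhi cells of 0.51 for *Ndufv1*, which binds the flavin, and 0.40 for *Ndufs1*, its largest iron-sulfur subunit. *Ndufv1* had 531, 553 and 694 normalized counts in IgMneg, 367 and 463 in CKO IgMhi and 547, 498 and 440.2 in control libraries (adjusted p = 0.0802). *Ndufs1* had 742, 562 and 663 in IgMneg, 476 and 514 in CKO IgMhi and 527, 598 and 471 in control libraries (adjusted p = 0.150). Neither passed the test, although their IgMneg libraries lay above those of CKO IgMhi cells. *Ndufv2*, the other core gene of this module, was not called either and overlapped between the CKO sorts (log2 fold change 0.25). It had 371, 503 and 335 normalized counts in IgMneg, 362 and 308 in CKO IgMhi and 438, 412 and 376 in control libraries. The 4 core genes of the coenzyme Q module had a median of 0.30, the 28 accessory subunits of 0.30 and the 7 assembly factors of 0.29. The assembly factor *Ndufaf2* had the largest value of all members, 1.25 (SE 0.43, adjusted p = 0.0866), from 26.2, 42.9 and 49.7 normalized counts in IgMneg, 18.1 and 13.3 in CKO IgMhi and 37.8, 38.3 and 26.0 in control libraries. *Ndufa4* had 316, 651 and 739.9 normalized counts in IgMneg, 558 and 435 in CKO IgMhi and 518, 713 and 527 in control libraries, which overlap throughout.

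In complex II, the membrane anchors *Sdhc* and *Sdhd*, which hold the heme and the coenzyme Q site, had values near that of *Sdhb*. *Sdhc* had 491, 457 and 446 normalized counts in IgMneg, 312 and 313 in CKO IgMhi and 474, 339.9 and 331 in control libraries, a log2 fold change of 0.57 over CKO IgMhi cells (SE 0.18, adjusted p = 0.0594). *Sdhd* had 607, 726 and 714 in IgMneg, 466 and 493 in CKO IgMhi and 482, 689 and 510.4 in control libraries, a log2 fold change of 0.50 (SE 0.17, adjusted p = 0.0831). The flavoprotein gene *Sdha* differed less between the sorts, with 893 ± 42.9 (SD, n = 3) normalized counts in IgMneg and 805 ± 65.8 (SD, n = 2) in CKO IgMhi cells (log2 fold change 0.15, SE 0.14, adjusted p = 0.563).

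Complex III had no called member, and its 2 redox subunits had values of opposite sign. *Uqcrfs1*, the Rieske iron-sulfur protein, had 608, 759 and 733 normalized counts in IgMneg, 562 and 518 in CKO IgMhi and 598, 689 and 608 in control libraries (log2 fold change 0.37, SE 0.15, adjusted p = 0.152). *Cyc1*, cytochrome c1, had 135, 183 and 176 in IgMneg, 182 and 279 in CKO IgMhi and 213, 163 and 181 in control libraries (log2 fold change -0.46, SE 0.23, adjusted p = 0.226). The smallest p of the complex was that of the hinge protein gene *Uqcrh*, with 979.5, 1581 and 1476 normalized counts in IgMneg and 1002 and 833 in CKO IgMhi libraries (log2 fold change 0.53, SE 0.21, adjusted p = 0.129). Library 1 of the IgMneg cells lay between the CKO IgMhi libraries and the other 2 far above them. *Uqcrc1* had 815 ± 25.9 (SD, n = 3) in IgMneg and 691 ± 70.6 (SD, n = 2) in CKO IgMhi cells, with an adjusted p of 0.315. *Uqcrq* had few reads, at 21.3, 48.4 and 10.1 normalized counts in IgMneg and 34.7 and 46.8 in CKO IgMhi libraries.

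Complex IV had positive values in all 11 members. *Cox4i1* had 1841, 2743 and 2652 normalized counts in IgMneg, 1788 and 1552 in CKO IgMhi and 1769.6, 2149.6 and 1615 in control libraries (log2 fold change over CKO IgMhi cells 0.51, SE 0.18, adjusted p = 0.0979). *Cox5a*, the matrix-side partner of subunit 4, was near level, with 296 ± 35.2 (SD, n = 3) in IgMneg, 287 ± 8.83 (SD, n = 2) in CKO IgMhi and 338 ± 76.3 (SD, n = 3) in control cells. The liver-type isoform genes of small subunits, *Cox6a1* and *Cox7a2*, had 349 ± 123 and 553 ± 168 (SD, n = 3) in IgMneg, against 295 ± 66.7 and 434 ± 11.0 (SD, n = 2) in CKO IgMhi cells. Both overlapped between the sorts.

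In complex V, the catalytic *Atp5b* and its partner *Atp5a1* were the most abundant members by count. *Atp5b* had 5516, 5157 and 5342 normalized counts in IgMneg, 4002 and 3926 in CKO IgMhi and 4817, 4390.2 and 3952 in control libraries (log2 fold change over CKO IgMhi cells 0.43, SE 0.15, adjusted p = 0.0981). *Atp5a1* had 6052, 5209.8 and 6387 in IgMneg, 4365 and 4323 in CKO IgMhi and 5211, 4529 and 4480.1 in control libraries (log2 fold change 0.43, SE 0.16, adjusted p = 0.110). Every IgMneg library was above both CKO IgMhi libraries in both genes, and neither passed the test. *Atp5c1*, the central stalk, had the smallest p of the complex (log2 fold change 0.51, SE 0.17, adjusted p = 0.0790), with 1522, 2052 and 1779.8 normalized counts in IgMneg and 1276 and 1217 in CKO IgMhi libraries. The c ring genes *Atp5g1*, *Atp5g2* and *Atp5g3*, which encode an identical mature protein behind different import signals, had log2 fold changes of 0.23, 0.40 and -0.02. The member lower at an unadjusted p under 0.05 was *Atp5d*, also of the central stalk, with 273, 276 and 379.99 normalized counts in IgMneg, 377 and 419 in CKO IgMhi and 360.1, 364 and 383 in control libraries (log2 fold change -0.38, adjusted p = 0.202). Exons of *Atp5d* overlap those of a gene on the opposite strand.

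CKO mouse numbers 2 and 3 have a library of each sort, so the sorts could also be compared within a number, over these 2 pairs. In both pairs 75 of 84 members were higher in IgMneg cells and 1 was lower in both, while 36.1% of all genes tested were higher in both. By complex these were 38 of 43 in complex I, 4 of 4 in complex II, 7 of 9 in complex III, 10 of 11 in complex IV and 16 of 17 in complex V. The median log2 difference of the members was 0.43 in pair 2 and 0.54 in pair 3, beside 0.00 and 0.01 over all genes tested. With the replicate number as a block, 12 members were called, all higher, as were 4.18% of all genes tested. This block also takes in the control libraries by number, although control mice are other mice. With the CKO mouse as a random block, 14 members were called, all higher, as were 5.67% of all genes tested. The 3 members described above were among the called in both, beside *Atp5c1*, *Cox4i1*, *Sdhd* and *Uqcrh*.

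IgMneg library 1, whose mouse number has no IgMhi library, stood apart from libraries 2 and 3 in these genes. It was the lowest of the 3 for 67 of 84 members (79.8%), as against 32.8% of all genes tested. Against the mean of the CKO IgMhi libraries, the median log2 difference of the members was -0.00 in library 1, 0.50 in library 2 and 0.50 in library 3. Complex IV had -0.15, 0.66 and 0.53 in IgMneg libraries 1, 2 and 3, and complex III -0.06, 0.49 and 0.38. Complex II was the exception, with 0.49, 0.55 and 0.54 in the same libraries. Its 4 members also had the longest exons, with a median of 2744.5 bases. The median exon length was 1334 bases in complex I, 1237 in III, 702 in IV and 1928 in V. The part of exon length in this exception was not tested. *Cox7c*, a small subunit of complex IV, shows the pattern, with 622, 1272 and 1122 normalized counts in IgMneg libraries 1, 2 and 3 and 763 and 715 in CKO IgMhi libraries.

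**Figure D4:**
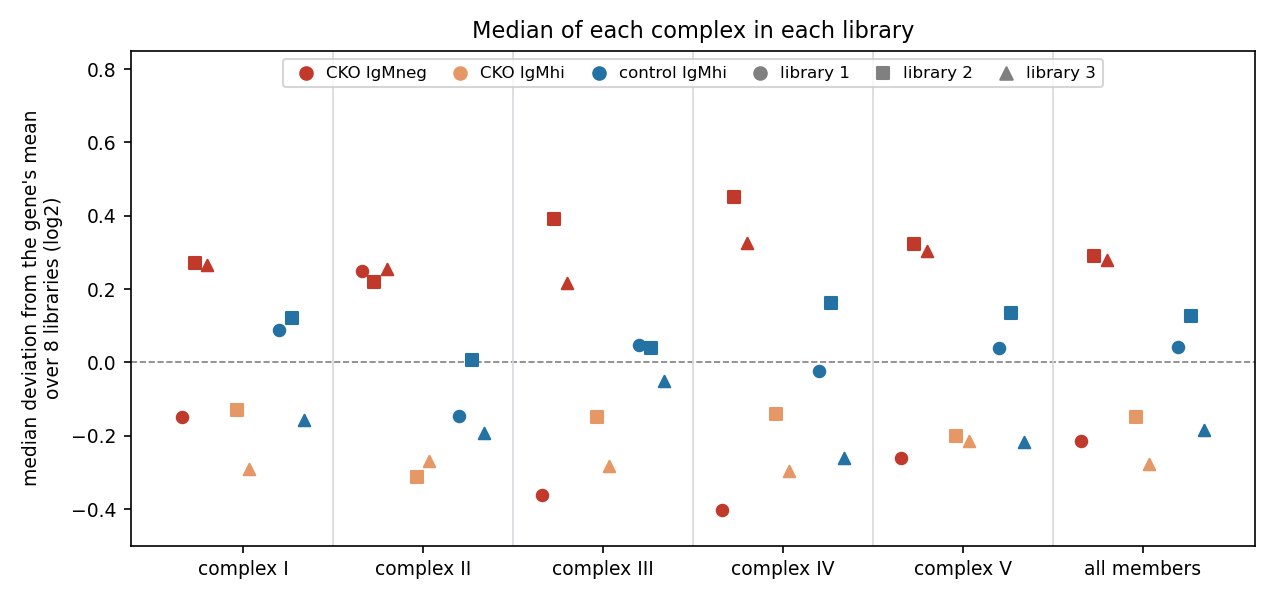
Median over the members of each complex of the deviation from the gene's mean over 8 libraries (log2), for each library. Colours give the groups, from left to right CKO IgMneg, CKO IgMhi and control IgMhi, and markers the library number; over all members the IgMneg libraries 1, 2 and 3 stand at -0.21, 0.29 and 0.28, the CKO IgMhi libraries 2 and 3 at -0.15 and -0.28 and the control libraries 1, 2 and 3 at 0.04, 0.13 and -0.19.

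The low values of IgMneg library 1 were most frequent among the short members. All 27 members with under 1000 bases of exon had their lowest IgMneg value in library 1, and 40 of the 57 longer members. The Spearman correlation of exon length with the difference between IgMneg library 1 and the mean of libraries 2 and 3 was 0.42 across the 84 members and 0.27 across 10443 genes, as a description. Members were short, with a median exon length of 1348.5 bases, beside 3715 over all genes. Across all genes, the log2 fold change of IgMneg over CKO IgMhi cells was lower in longer genes (Spearman correlation -0.39), while the correlation across the members was 0.02. After each library was freed of its trend on length and GC content, the median log2 fold change of the members was 0.12, by complex 0.08 in I, 0.34 in II, 0.08 in III, 0.10 in IV and 0.15 in V, and *Sdhb* alone was called, beside 1.55% of all genes tested called higher.

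**Figure D5:**
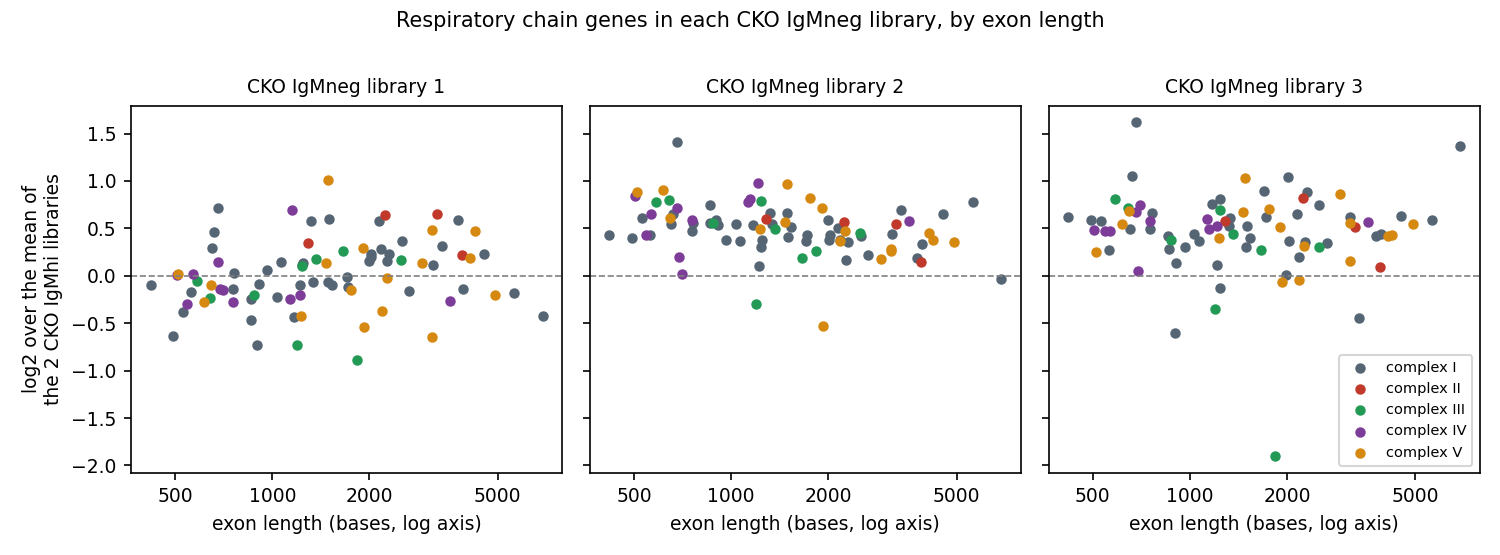
Log2 of each member in CKO IgMneg libraries 1, 2 and 3 over the mean of the 2 CKO IgMhi libraries, against exon length in bases (log axis), with colours for the complexes. In library 1 the members scatter around 0 with a median of -0.00 and complex II at 0.49; in libraries 2 and 3 most lie above 0, with a median of 0.50 in each.

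Without IgMneg library 1, 16 members were called, all higher in IgMneg than in CKO IgMhi cells, beside 2.64% of all genes tested, and the median was 0.52. By complex these were 1 of I, 1 of II, 3 of III, 6 of IV and 5 of V, among them *Sdhb*, *Uqcr10*, *Uqcr11*, *Uqcrh*, *Cox4i1*, *Cox6b1*, *Cox7a2*, *Cox7a2l*, *Cox7b*, *Cox7c*, *Atp5c1*, *Atp5e*, *Atp5g2*, *Atp5h* and *Atp5k*. With any 1 of the other CKO libraries left out, fewer of all genes tested were called as well. No member was called without CKO IgMhi library 2 or without CKO IgMhi library 3, where 0.189% and 0.0379% of all genes tested were called higher. Without IgMneg library 2 there were 2 called members, *Sdhb* among them, beside 1.01% of all genes tested, and without IgMneg library 3 there were 2, *Cox7a2l* and *Sdhb*, beside 0.702%. On the recovered reads, edgeR called 6 members and DESeq2 13, all higher, as were 2.77% and 4.35% of all genes tested.

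The comparison of CKO with control IgMhi cells sets B-1a cells with surface IgM of both kinds of mice side by side. These mice differ in genotype and in their cross, which cannot be told apart here. No member was called, nor by edgeR or DESeq2 on the recovered reads. Few of all 10627 genes tested were called either: 0.179% by limma, 27 genes by edgeR and 112 by DESeq2. At an unadjusted p under 0.05, 5 members were lower and 0 higher in CKO IgMhi cells, beside 2.61% of all genes tested lower and 7.01% higher. The 5 were *Ndufa3*, *Ndufaf2*, *Ndufb7*, *Atp5g2* and *Atp5sl*. Log2 fold changes were negative for 75 of 84 members, with a median of -0.19, beside 0.00 over all genes tested. By complex the median was -0.21 in I, -0.24 in II, -0.19 in III, -0.20 in IV and -0.13 in V. With library totals as the scale, the median over all genes moved to 0.15, the members had a median of -0.05 and complex V one of 0.01.

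*Atp5g2* had 935 and 811 normalized counts in CKO IgMhi libraries 2 and 3 and 1263, 1302 and 1204 in control libraries 1, 2 and 3 (log2 fold change -0.53, SE 0.19, adjusted p = 0.332). *Ndufa3*, an accessory subunit of the membrane arm of complex I, had 218 and 135 in CKO IgMhi and 262, 407 and 252 in control libraries (log2 fold change -0.80, SE 0.31, adjusted p = 0.370). With the replicate number as a block, *Ndufa3* was called and was the only member to be, beside 0.0847% of all genes tested called lower. That block matches CKO with control libraries by number alone, although control mice are other mice. *Atp5sl*, named for its likeness to *Atp5s* and now known as an assembly factor of complex I, had 116 and 135 in CKO IgMhi and 198, 239 and 166 in control libraries (log2 fold change -0.66, SE 0.25, adjusted p = 0.332). The smallest p in the other complexes were those of *Sdhb* and *Sdhc*, with log2 fold changes of -0.28 and -0.27 (adjusted p = 0.576 and 0.683), *Uqcrfs1* and the core protein gene *Uqcrc1*, with -0.22 and -0.19 (adjusted p = 0.694 and 0.720), and *Cox6a1* and *Cox7a2l*, with -0.48 and -0.30 (adjusted p = 0.541 and 0.591). *Sdhb*, which was called between the CKO sorts, thus stood in control cells between them, with 638, 694 and 611 normalized counts. In 23 members both CKO IgMhi libraries were below all control libraries, and in 2 both were above, beside 12.6% of all genes tested below and 16.2% above.

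The 2 shallow control libraries stood apart from the third here. The member medians of control libraries 1 and 2 were 0.04 and 0.13 relative to the mean of 8 libraries, while control library 3, the deepest of all, had -0.19, between -0.15 and -0.28 of the CKO IgMhi libraries. The ribosomal precursor *Rn45s* took 17.3% and 25.1% of reads in control libraries 1 and 2, and 4.62% in control library 3. Without control libraries 1 and 2, an alternative chosen after seeing the data, the median of CKO IgMhi over control cells was -0.01, with 0.02 in complex IV and 0.05 in complex V. The part of depth and of ribosomal RNA in the difference was not tested.

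Against control IgMhi cells, IgMneg cells differ in genotype, in the cross of the mice and in surface IgM. No member was called, nor by edgeR or DESeq2. Of all 10627 genes tested, 0.301% were called by limma, 46 genes by edgeR and 187 by DESeq2. At an unadjusted p under 0.05, 13 members were higher and 0 lower, beside 7.55% of all genes tested higher and 7.85% lower. Log2 fold changes were positive for 68 of 84 members, with a median of 0.18, beside 0.01 over all genes tested. Complex II had the highest median, 0.30, with 4 of 4 positive, followed by 0.23 in V, 0.20 in IV, 0.14 in I and 0.14 in III. In 7 members all IgMneg libraries were above all control libraries, beside 9.91% of all genes tested.

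The smallest p of the members was that of *Sdhb*, with 856 ± 80.9 (SD, n = 3) normalized counts in IgMneg and 648 ± 42.5 (SD, n = 3) in control cells (log2 fold change 0.40, SE 0.13, adjusted p = 0.179). *Sdha* had 893 ± 42.9 in IgMneg and 737 ± 58.2 in control cells (log2 fold change 0.28, SE 0.13, adjusted p = 0.319, n = 3 each), and its IgMneg libraries lay above all control libraries. *Uqcrc2*, a core protein of complex III, had 897 ± 87.7 in IgMneg and 739 ± 51.9 in control cells (log2 fold change 0.28, SE 0.13, adjusted p = 0.324, n = 3 each). Its exons, too, overlap a gene on the opposite strand. *Ndufa13*, an accessory subunit of complex I whose exons overlap a gene on the opposite strand, had 606, 718 and 971 normalized counts in IgMneg and 596, 594 and 491 in control libraries (log2 fold change 0.43, adjusted p = 0.236). In complexes IV and V the smallest p were those of *Cox7a2l* and *Cox4i1*, with log2 fold changes of 0.37 each (adjusted p = 0.243 and 0.296), and of *Atp5c1*, with 0.34 (adjusted p = 0.311), followed by *Atp5a1*, which did not pass the test either. Without IgMneg library 1, *Atp5e* was the only member called, beside 0.217% of all genes tested called higher, with 1038, 2026 and 1876.5 normalized counts in IgMneg libraries 1, 2 and 3 and 1129, 1302 and 1126 in control libraries. With the length and GC trend removed, the member median was 0.03, and complex II had the highest, 0.26. The comparisons share libraries, so that the values of each group enter 2 of them.

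Genes that serve the chain without belonging to it by name had positive medians in IgMneg against CKO IgMhi cells apart from the regulators. There were 4 calls in 5 lists, 2 of them lower. Over all genes tested 1.78% were called higher, and 611 of 10627 were called lower. Before adjustment (p under 0.05), 10.4% of all genes tested were higher and 13.8% lower. Of 40 assembly factors and electron carriers outside the name rule, 1 was called higher and 0 lower, with a median of 0.35. That gene was *Sdhaf1*, which helps to insert iron-sulfur clusters into SDHB, with 232 ± 50.4 (SD, n = 3) normalized counts in IgMneg and 127 ± 13.4 (SD, n = 2) in CKO IgMhi cells (log2 fold change 0.85, SE 0.24, adjusted p = 0.0422). Of 8 carriers and porins, the outer membrane channel gene *Vdac3* was called higher, with 894 ± 31.9 (SD, n = 3) in IgMneg and 601 ± 12.2 (SD, n = 2) in CKO IgMhi cells (log2 fold change 0.57, SE 0.16, adjusted p = 0.0365). Of 18 citric acid cycle genes (median 0.21), 0 were called by limma and 1 by edgeR, and 4 were higher and 0 lower before adjustment (p under 0.05). Of 13 coenzyme Q synthesis genes (median 0.35), 0 were called by either, and 3 were higher and 0 lower before adjustment (p under 0.05).

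Of 17 regulators of mitochondrial biogenesis, 2 were called lower and 0 higher, with a median of -0.02. Before adjustment (p under 0.05), 2 were higher and 2 lower. *Pprc1*, a PGC-1-related coactivator, had 67.1 ± 11.4 (SD, n = 3) normalized counts in IgMneg and 189.6 ± 40.8 (SD, n = 2) in CKO IgMhi cells (log2 fold change -1.48, SE 0.24, adjusted p = 0.00232). *Myc*, which drives growth and mitochondrial genes in activated lymphocytes, had 178 ± 70.8 (SD, n = 3) in IgMneg and 395 ± 49.5 (SD, n = 2) in CKO IgMhi cells (log2 fold change -1.21, SE 0.28, adjusted p = 0.0156). *Tfam*, which packages and transcribes mitochondrial DNA, was not called (log2 fold change 0.32, SE 0.15, adjusted p = 0.190). Against control cells, 0 genes of these lists were called by limma or edgeR, where few of all genes tested were called, as given with each comparison. At an unadjusted p under 0.05, 10 were higher and 3 lower in IgMneg, and 3 higher and 6 lower in CKO IgMhi cells, to be read against the shares of all genes tested given with each comparison (7.55% and 7.85%, 7.01% and 2.61%).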

How the data were processed

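RNA was measured in 8 libraries grouped by GEO's labels. The authors removed ribosomal RNA, aligned reads to mm9 with TopHat2 2.0.13, counted them per gene with HTSeq 0.6.0 (union mode) and divided the counts of each library by a DESeq2 size factor in R 3.3.1. Such normalized counts, as deposited, have the unit signal. Dividing by the smallest step in a library gave whole numbers for 100% of values (tolerance 0.01), and these recovered reads entered edgeR and DESeq2. Strandedness of counting is not given in the sources used here: 17 members have exons overlapping another gene, 16 of them on the opposite strand. Among these are *Ndufs1*, *Ndufa13*, *Cox5a*, *Cox6c*, *Uqcrc2* and *Atp5d*, whose values are given above.

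In R 4.3.3, limma 3.58.1 (trend, not robust) was fitted to log2(normalized count + 1) over 3 groups, for the 10627 genes that reached 10 normalized counts in 2 or more libraries. Tests were two-sided with Benjamini-Hochberg adjustment over all genes and a threshold of 0.05. Fold changes are on that log2 scale, which understates low genes. The labels number the mice but do not exclude pools, so p-values measure the spread between these libraries. Mm9 positions and exon lengths (union of exons) came from GENCODE vM1, matched by name for 10585 genes (98.16%). Numbers 2 and 3 of the CKO libraries were read as mice that gave both sorts, which the labels do not state outright. The deviations of same-numbered libraries correlated at 0.26 and 0.20 (within-mouse correlation 0.26), but with 2 IgMhi libraries the other pairing gives the same values with a negative sign, and 2 pairs are few. Control mice are other mice. The limma and edgeR steps were tested on simulated data.

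The members and lists were chosen with earlier results of these data known. Named were the called members with the smallest p, redox and catalytic subunits, paralogs, the highest and lowest level per kilobase of each complex, and the 2 smallest p where fewer than 2 were called. *Ndufb7*, *Ndufv2*, *Atp5d*, *Atp5e*, *Atp5h*, *Atp5k*, *Cox6b1*, *Cox7b*, *Cox7c*, *Uqcr11* and *Tfam* were named after their values were seen. A called member that this rule names is not reported here. The alternatives changed the scaling (TMM, quantile, totals), the pseudocount (0.5, 5), the filter (none, 50), limma (no trend, robust, 2 groups), the tool (edgeR 4.0.16, DESeq2 1.42.0) and the replicate block, removed trends on length and GC (splines with 4 degrees of freedom), or left out a library.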

Additional observations from a re-analysis of the deposited data

How the results depend on the processing

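The count of 4 members called in IgMneg against CKO IgMhi cells was 0 with total scaling, 0 without the trend, 13 with DESeq2, 1 with length and GC trends removed (12, 0, 462 and 162 of all genes tested were called higher there, against 189), and 0 to 16 with a library left out. It was 12 with the replicate number as a block and 14 with the CKO mouse as a random block, and 4 to 6 in every other setting. In CKO IgMhi against control cells the count of 0 became 1 with the replicate number as a block, which matches different mice there. In IgMneg against control cells it was 0 to 1 with a library left out. The block changed no other count of these 3. The median log2 fold change of the members kept its sign in every setting, between 0.12 and 0.52 for IgMneg against CKO IgMhi, 0.03 and 0.36 for IgMneg against control and -0.27 and -0.01 for CKO IgMhi against control cells. Over 42 members named with values or calls, 45 values passed the threshold that had not, 19 no longer did, 0 reversed and 51 that passed in neither moved by more than the spread between replicates. This tally leaves out *Ndufv2*. Medians of complexes crossed 0 in IgMneg or CKO IgMhi against control cells only, by at most 0.05. The cause of these changes was not tested. Depth limits the low members: control library 2 had 1404660 reads in genes.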
